A study of Mus musculus with 22 samples.

Results

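Cytochrome P450 enzymes of families 1 to 4 were followed in RNA from mouse liver cells labelled HSC, the usual short form of hepatic stellate cells, over diet and time of day. The members were all genes of the deposited read count table whose symbol is Cyp, a family digit from 1 to 4, a lower-case subfamily letter and a number. This rule found 75 of the 55367 genes listed: 3 in family 1, 48 in family 2, 7 in family 3 and 17 in family 4. It leaves out symbols that end in a further letter and pseudogenes. The study took livers from mice on chow and from mice on CDA-HFD, a high-fat feed that lacks choline and is given to produce fatty, inflamed and scarred liver. Mice were 8 weeks old when feeding started and 20 weeks old at sampling, which fits the 12 weeks of feeding in the growth protocol, while a treatment label on the CDA-HFD samples gives 6 months. Tissue was taken at zeitgeber time (ZT) 0, when lights came on, at ZT6, at ZT12, when lights went off, and at ZT18. The control groups hold 3, 2, 2 and 3 libraries in that order of times, 10 in all, and the CDA-HFD groups hold 3 each, 12 in all. Strain, sex, genotype, the isolation of the cells and any pooling of animals were not given in the sources used here. The p-values therefore describe variation among libraries, which may be technical.

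Families 1 to 4 hold the P450 enzymes that oxidise drugs, pollutants, fatty acids and fatty acid signals such as arachidonic acid. They sit in the endoplasmic reticulum, carry a haem group and take electrons from the reductase Por, in some reactions helped by cytochrome b5. In liver most of them are made in hepatocytes, above all around the central vein, and ligand-activated receptors such as Ahr, Nr1i2, Nr1i3 and Ppara raise the transcription of particular subfamilies. Several members are instead made mainly in endothelium, lung, kidney, brain or leukocytes.

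Libraries held 19754805 to 41665623 counts. Levels are given as CPM, counts scaled to the size of each library after correction by the trimmed mean of M values. Marker lists without families 1 to 4 were summed in each library. Of 12 stellate genes, Dcn, which other fibroblasts also make, was the highest, at 259.2 ± 157.6 CPM (SD, n = 10) in control and 94.99 ± 57.1 (n = 12) under CDA-HFD, and Rgs5 reached 132.4 CPM under CDA-HFD. The other 10 reached no more than 25.1 CPM in any library, among them Lrat (3.65), Reln (5.92), Pdgfrb (4.70) and Des (10.1). The sinusoidal endothelial genes Stab2 and Clec4g averaged 5142 ± 1161 and 5050 ± 1120 CPM (SD, n = 10) in control. The sum of 12 endothelial genes was 17800 to 35030 CPM in control and 1178 to 2696 under CDA-HFD, and all 12 fell. Hepatocyte genes (25) summed to 679 to 1184 CPM in control and 1517 to 3295 under CDA-HFD, and 21 rose. A list of 12 pericentral hepatocyte genes without P450 went the other way in sum, from 313.1 to 594.2 CPM in control to 203.4 to 309.8 under CDA-HFD, though 5 of its genes rose and 3 fell, and 12 periportal genes went from 142 to 370 CPM to 451 to 702, with 6 higher and 2 lower. Lymphocyte genes (12) summed to 401 to 1434 and 2129 to 4820 CPM, and all 12 rose. The macrophage sum ran from 501 to 3396 against 1418 to 4258, the cholangiocyte sum from 331 to 892 against 1156 to 4566, the neutrophil sum from 26.1 to 127 against 62.6 to 205, and the stellate sum from 121 to 686 against 114 to 426. Of the 12 stellate genes 3 rose, 2 fell and 7 did not pass. Their median log2 difference, CDA-HFD minus control, was 0.60, so most did not follow the fall of Dcn. No marker in these lists was at 0 in every library. In bulk RNA, fewer cells of a type and less RNA per cell cannot be told apart. In the first principal component, control ZT0 replicate 2 lay at -46.6 and the other controls from -95.8 to -126. In the second, control ZT18 replicate 1 lay at -110.1, far from the rest. Adrenal cortex genes summed to 296 to 830 CPM in all 3 control libraries at ZT18, 423 CPM in control ZT12 replicate 2 and 349 CPM in CDA-HFD ZT18 replicate 1, and to 17.4 to 48.7 CPM in the other 17.

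**Figure D1:**
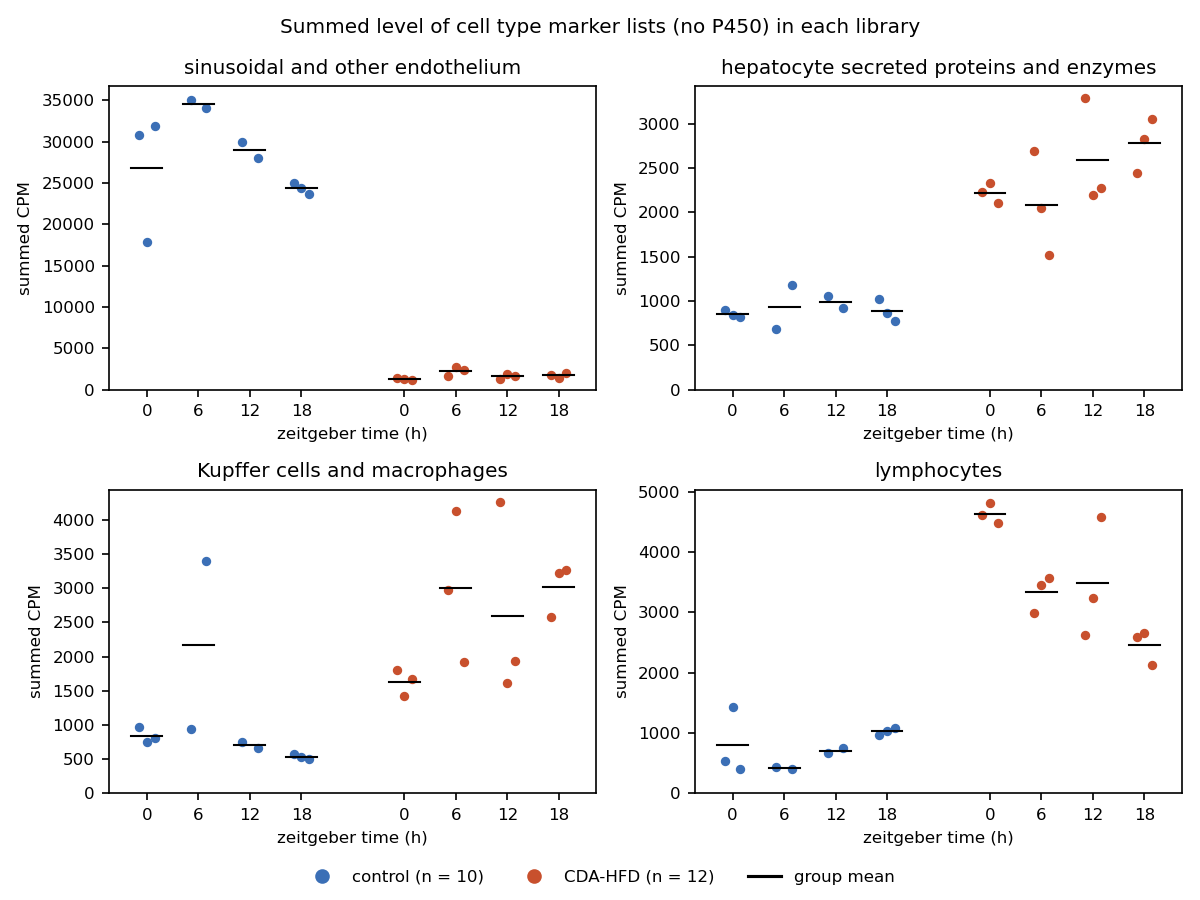
Summed CPM of 4 cell type marker lists (y axis, linear, from 0) in each library by zeitgeber time in hours (x axis), control in blue and CDA-HFD in red, with group means as lines. The endothelial sums of all control libraries lie at or above 17800 CPM and those of all CDA-HFD libraries at or below 2696 CPM, while the hepatocyte and lymphocyte sums are higher under CDA-HFD.

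The 250 bases before the RefSeq start (GRCm38.p6) are shown for 6 members that differed with diet: Cyp4b1, the most abundant member; Cyp2j6, Cyp2j9 and Cyp2j5, neighbours on chromosome 4 that changed in opposite directions; Cyp1a1, the classical target of the receptor Ahr; and Cyp4f18, which rose most among members at 1 CPM or more. They are written 5′ to 3′ on the strand of the gene, at chr4:115647722-115647971 (minus strand) for Cyp4b1, chr4:96553652-96553901 (minus) for Cyp2j6, chr4:96591486-96591735 (minus) for Cyp2j9, chr4:96664120-96664369 (minus) for Cyp2j5, chr9:57697363-57697612 (plus) for Cyp1a1 and chr8:72009627-72009876 (minus) for Cyp4f18. Capitals mark matches to the motifs named after the sequences, on either strand.
Cyp4b1: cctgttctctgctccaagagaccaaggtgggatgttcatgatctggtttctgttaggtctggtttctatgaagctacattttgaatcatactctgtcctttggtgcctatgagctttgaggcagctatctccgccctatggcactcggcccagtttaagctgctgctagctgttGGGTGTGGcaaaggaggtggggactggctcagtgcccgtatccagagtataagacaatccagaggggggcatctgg
Cyp2j6: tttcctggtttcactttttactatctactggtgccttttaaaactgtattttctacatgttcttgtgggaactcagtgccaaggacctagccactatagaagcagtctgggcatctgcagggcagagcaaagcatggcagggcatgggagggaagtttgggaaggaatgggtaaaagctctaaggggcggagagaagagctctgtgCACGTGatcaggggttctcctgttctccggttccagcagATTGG
Cyp2j9: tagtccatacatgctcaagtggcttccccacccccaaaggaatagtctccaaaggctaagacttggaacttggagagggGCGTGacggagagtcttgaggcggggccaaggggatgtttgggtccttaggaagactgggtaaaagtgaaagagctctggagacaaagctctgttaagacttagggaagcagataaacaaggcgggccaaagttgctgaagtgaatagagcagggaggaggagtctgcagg
Cyp2j5: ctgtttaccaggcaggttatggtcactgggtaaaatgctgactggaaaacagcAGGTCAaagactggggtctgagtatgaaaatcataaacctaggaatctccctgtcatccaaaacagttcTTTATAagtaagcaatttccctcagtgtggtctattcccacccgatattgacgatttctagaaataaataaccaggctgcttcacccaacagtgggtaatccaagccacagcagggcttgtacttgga
Cyp1a1: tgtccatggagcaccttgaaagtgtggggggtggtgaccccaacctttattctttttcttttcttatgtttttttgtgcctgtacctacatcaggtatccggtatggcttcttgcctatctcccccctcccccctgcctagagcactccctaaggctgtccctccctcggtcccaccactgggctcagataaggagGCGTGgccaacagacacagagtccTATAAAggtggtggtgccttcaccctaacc
Cyp4f18: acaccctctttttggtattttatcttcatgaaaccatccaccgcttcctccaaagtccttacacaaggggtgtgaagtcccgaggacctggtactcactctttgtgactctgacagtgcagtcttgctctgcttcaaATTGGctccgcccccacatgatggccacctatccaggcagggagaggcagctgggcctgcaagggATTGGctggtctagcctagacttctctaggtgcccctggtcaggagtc

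The motifs searched, on both strands and chosen with the sequences in view, were GCGTG (the core of the xenobiotic response element to which Ahr binds), CACGTG (E-box, the site of clock factors), TTATGTAA and TTACGTAA (D-box, the site of Dbp and Nfil3), TATAAA (the TATA box), CCAAT, CCACACCC (a site of Krüppel-like factors) and AGGTCA (a nuclear receptor half-site). In Cyp1a1 the GCGTG core lay 54 bases and the TATA box 30 bases before the start. Cyp2j9 held a GCGTG core at 171 bases, Cyp2j6 an E-box at 44 bases and CCAAT on the other strand at 5 bases, and Cyp2j5 a half-site at 197 bases and a TATA box on the other strand at 128 bases. Cyp4b1 held CCACACCC on the other strand at 76 bases, and Cyp4f18 held CCAAT on the other strand at 113 and at 48 bases. So the 3 Cyp2j neighbours shared none of these motifs in this window. RefSeq promoters were matched for 62 of the 75 members (69 promoters). GCGTG was in 13 of the 69 and in 28.2% of all 32851 promoters of that length, CACGTG in 2 and 6.02%, the D-box in 0 and 0.931%, TATAAA in 24 and 12.4%, CCAAT in 29 and 33.8%, CCACACCC in 2 and 3.2%, and AGGTCA in 17 and 14%. A match is a description of letters and not a binding site.

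Of the 75 members, 49 passed the filter on low counts and were tested among 22409 genes. The other 26 had between 1 and 81 counts in the 22 libraries together, and the highest of them, Cyp4f39, averaged 0.146 CPM. They include Cyp2b10, the phenobarbital-inducible enzyme, and Cyp3a44, an enzyme more abundant in female liver. Of the 49 tested, 30 averaged at least 1 CPM.

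Per kilobase of exon, Cyp4b1 was by far the most abundant member, at 381.9 CPM per kb over the 22 libraries, followed by Cyp2d22 at 20.8 and Cyp4f18 at 14.2. Next came the ethanol- and acetaminophen-oxidising Cyp2e1 at 12.85 CPM per kb, Cyp2j6 at 9.62, Cyp4f16 at 9.18, Cyp4f13 at 7.24, Cyp4v3 at 5.41, Cyp4f14 at 2.11 and Cyp2j5 at 2.09. Within this order Cyp4f14 and Cyp2j5, Cyp2j6 and Cyp4f16, and Cyp4f18 and Cyp2e1 differed by less than the spread between libraries. Divided by the longest transcript instead of all exons, Cyp4f13 took the third rank and Cyp2j5 the 11th. The order differed between the diets: Cyp4b1 stood at 795.4 CPM per kb in control and 37.3 under CDA-HFD, Cyp2d22 at 39.7 and 5.08, and Cyp4f18 at 4.88 and 21.96. Summed over the 75 members, the level fell from a mean of 2189 CPM in control to 352.8 CPM under CDA-HFD, and Cyp4b1 made up 76.5 to 85.1% of that sum in control libraries but 17.8 to 33.5% under CDA-HFD. Without Cyp4b1 the members summed to 327.4 to 503.8 CPM in control libraries and 227.7 to 318.3 CPM under CDA-HFD, again without overlap.

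With diet, averaged over the 4 times, edgeR's quasi-likelihood test called 17 of the 49 members (34.7%) at a Benjamini-Hochberg adjusted p under 0.05, while it called 52.4% of all genes tested. The shares were not tested against each other. Of the 30 members at 1 CPM or more, 15 passed, and of the 19 below it 2. Of the members, 10 were higher under CDA-HFD (27.5% of all genes were) and 7 lower (24.9% of all genes). The median log2 difference, CDA-HFD minus control, was 0.33 over the members and 0.08 over all genes tested. By subfamily, all 3 tested Cyp2j genes changed, 2 down and 1 up. Of the 7 tested Cyp4f genes 3 rose and 1 fell, of the 4 tested Cyp4a genes 2 rose, and of the 11 tested Cyp2c genes 1 fell. None of the 3 tested Cyp3a genes passed.

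**Figure D2:**
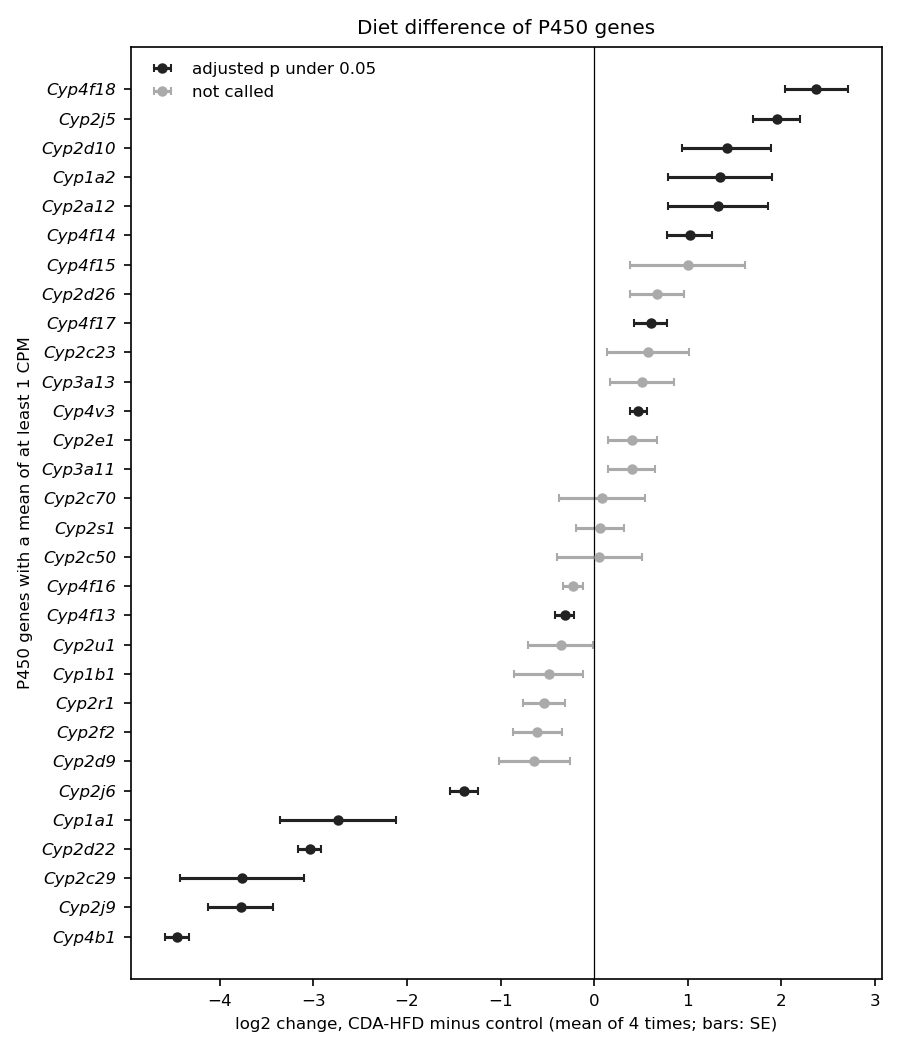
Log2 difference, CDA-HFD minus control, averaged over the 4 times (x axis; bars are standard errors) for the 30 P450 genes with a mean of at least 1 CPM (y axis). Black points passed an adjusted p of 0.05 and grey points did not. Cyp4b1 lies at -4.46, and 15 of the 30 genes did not pass.

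Members that fell included the most abundant of the family. Cyp4b1, an enzyme of lung and other extrahepatic tissues that oxidises fatty acids and activates protoxins such as ipomeanol, lies at chr4:115624725-115647723 (minus strand). Its level was 1595, 1070 and 1506 CPM in the control libraries at ZT0, 2323 and 2230 at ZT6, 1869 and 1729 at ZT12, and 1900, 1898 and 1823 at ZT18. Under CDA-HFD it was 73.1, 60.0 and 60.0 CPM at ZT0, 56.8, 135.5 and 112.9 at ZT6, 57.1, 83.7 and 65.6 at ZT12, and 113.4, 79.2 and 113.2 at ZT18. Every control library was far above every CDA-HFD library. The mean went from 1794 ± 357 CPM (SD, n = 10) to 84.2 ± 27.5 (n = 12), a ratio of 21.3, with a log2 difference of -4.46 ± 0.13 (SE) and an adjusted p of 2.88e-16 in edgeR. The fall was of like size at each time, from -4.20 at ZT18 to -4.71 at ZT12. The endothelial markers fell too. Cyp4b1 was 4.73 to 7.78% of the endothelial sum in control libraries (median 6.40%) and 3.35 to 6.30% under CDA-HFD (median 4.905%). This percentage overlapped where the level did not. Control ZT0 replicate 2 had the lowest control level of Cyp4b1 and the lowest control endothelial sum. Other controls did not keep this order: ZT0 replicate 3 had 1506 CPM of Cyp4b1 beside a sum of 31840, and ZT18 replicate 3 had 1823 beside 23650. A link between the 2 was not tested.

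Cyp2d22 (chr15:82370527-82380260, minus strand), a mouse member of the drug-metabolising Cyp2d subfamily, fell in the same libraries. It was 116 CPM at the lowest, 153 at the median and 197 at the highest in control, and 10.7, 19.2 and 39.0 CPM under CDA-HFD. The diets did not overlap. The mean went from 155 ± 25.4 to 19.9 ± 7.71 CPM, a log2 difference of -3.04 ± 0.12 with an adjusted p of 1.43e-14 in edgeR. As a percentage of the endothelial sum it was 0.441 to 0.740% in control and 0.795 to 2.30% under CDA-HFD. Unlike that of Cyp4b1, this percentage was higher in every CDA-HFD library than in any control library.

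The Cyp2j enzymes make epoxides and hydroxylated products from arachidonic acid, and 3 of the 8 listed could be tested. Cyp2j6 (chr4:96516138-96553661) had 39.7, 52.2 and 55.5 CPM as lowest, median and highest control values and 5.88, 20.1 and 33.7 CPM under CDA-HFD. Its neighbour Cyp2j9 (chr4:96568429-96591578), known from brain, had 5.62, 8.83 and 13.6 CPM in control and 0, 0.769 and 2.05 CPM under CDA-HFD. Both had control libraries that all lay above the CDA-HFD libraries. The log2 differences were -1.39 ± 0.15 (adjusted p 6.02e-08) and -3.78 ± 0.35 (adjusted p 9.73e-09). Cyp2j6 was 0.153 to 0.234% of the endothelial sum in control and 0.499 to 2.60% under CDA-HFD, without overlap, like Cyp2d22. Cyp2j9 was 0.0225 to 0.0555% in control and 0 to 0.149% under CDA-HFD, which overlap. A count of 0, found in 1 library for Cyp2j9, allows up to 3 counts, or 0.0763 to 0.167 CPM depending on the library, counting error alone.

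Cyp2j5 (chr4:96628773-96664154), the arachidonic acid epoxygenase of liver and kidney, went the other way. It had 0.363, 2.12 and 2.88 CPM as lowest, median and highest control values and 3.73, 7.19 and 11.8 CPM under CDA-HFD. Again no library of one diet reached the other, with all CDA-HFD values higher. The log2 difference was 1.95 ± 0.25 (edgeR adjusted p 1.37e-06). All 3 genes lie next to each other on the minus strand, and the subfamily as a whole went from a mean sum of 63.6 to 29.2 CPM, since Cyp2j6 held most of it. Fewer than 0.5% of the 50-base windows of the longest transcript of each gene recur in another gene (0.422, 0 and 0.174% for Cyp2j6, Cyp2j9 and Cyp2j5). For Cyp2j9 that transcript holds 2536 of 3337 exon bases. Relative to the hepatocyte sum, Cyp2j5 was 0.0345 to 0.337% in control and 0.177 to 0.428% under CDA-HFD, which overlap.

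**Figure D3:**
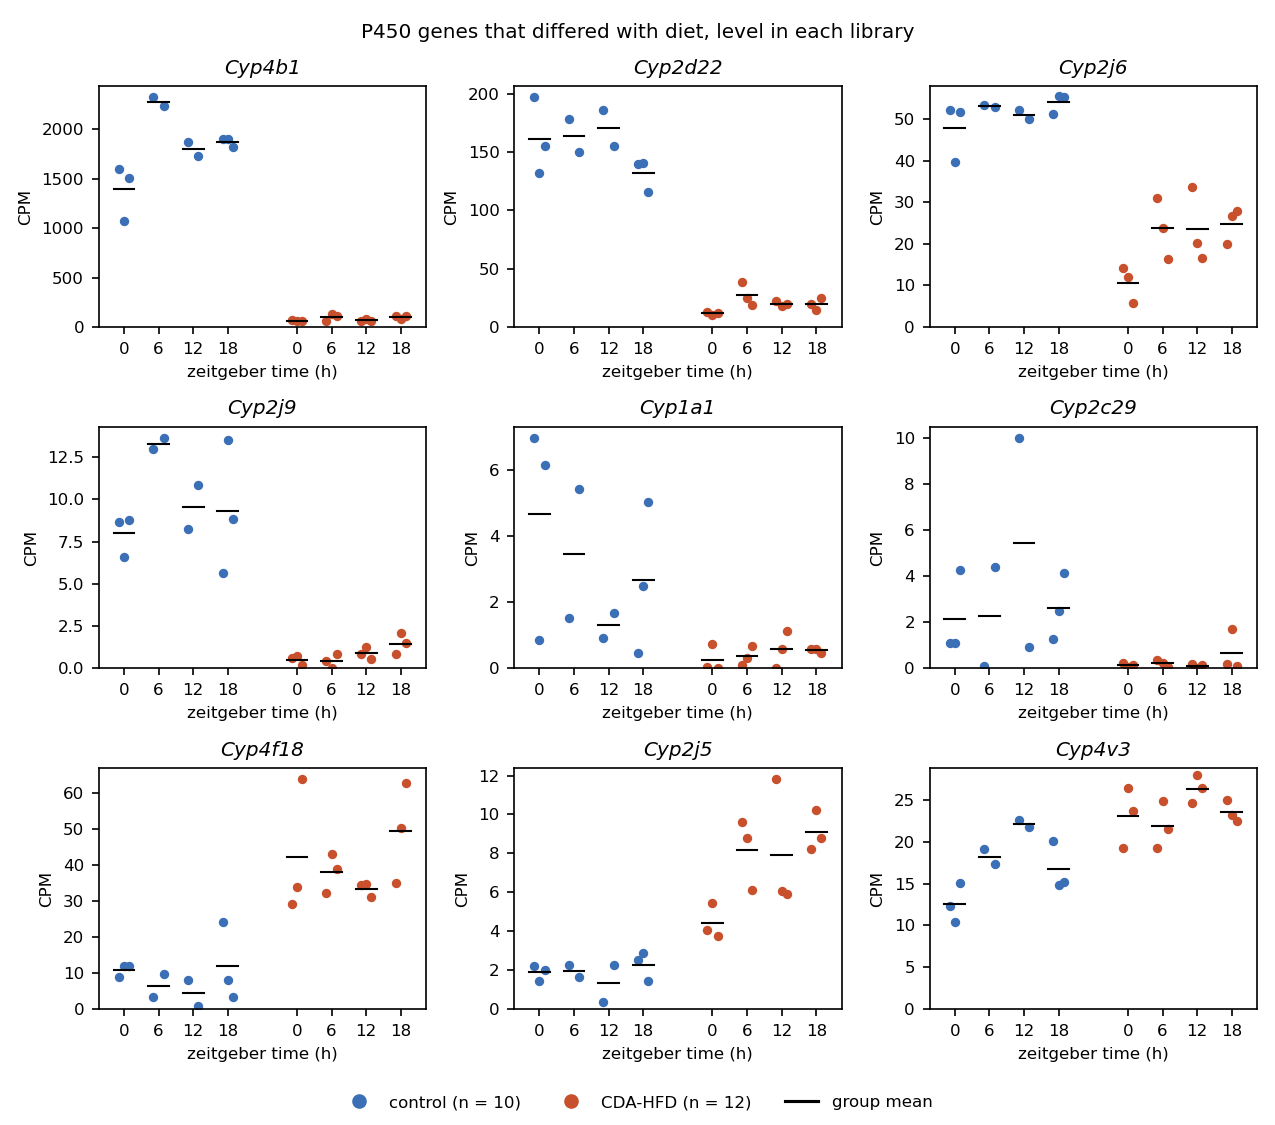
CPM (y axes, linear, from 0, each panel with its own scale) of 9 P450 genes in each library by zeitgeber time in hours (x axes), control in blue and CDA-HFD in red, with group means as lines. Cyp4b1, Cyp2d22, Cyp2j6 and Cyp2j9 are lower in every CDA-HFD library than in any control library, Cyp4f18 and Cyp2j5 are higher in every one, and Cyp1a1, Cyp2c29 and Cyp4v3 overlap.

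The 4 genes named so far as lower without overlap, Cyp4b1, Cyp2d22, Cyp2j6 and Cyp2j9, compare with 9.78% of all genes tested, and the 2 higher without overlap, Cyp2j5 and Cyp4f18, with 7.35% of all genes. Both counts are near or below what the background gives for 49 members.

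Family 1 oxidises aromatic hydrocarbons and is switched on by Ahr. Cyp1a1 (chr9:57687928-57703824) had 0.458, 2.08 and 6.96 CPM as lowest, median and highest control values and 0, 0.513 and 1.13 CPM under CDA-HFD. The ranges overlapped, since 3 control libraries lay within the CDA-HFD range. The log2 difference was -2.73 ± 0.62 (edgeR adjusted p 8.66e-04), and -3.59 without CDA-HFD ZT0 replicate 2. Cyp1a2, the hepatocyte enzyme for caffeine and arylamines, lies beside it at chr9:57676937-57683703 and was higher under CDA-HFD by 1.35 ± 0.55 on the log2 scale (adjusted p 0.0473). It had 0, 0.618 and 6.81 CPM in control and 0.661, 3.68 and 6.69 CPM under CDA-HFD, so the ranges overlapped almost fully. The call was lost in 15 of 22 fits that left out 1 library and was kept without control ZT0 replicate 2, ZT6 replicate 2, ZT12 replicate 1 or ZT18 replicate 3, or CDA-HFD ZT6 replicate 2 or 3 or ZT12 replicate 1 (adjusted p 0.00178 to 0.124 over the 22). The difference was 2.41 without control ZT12 replicate 1 and 2.02 without control ZT18 replicate 3. Cyp1b1, which hydroxylates oestradiol and is made outside hepatocytes, gave -0.49 ± 0.37 (adjusted p 0.287) and did not pass.

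Among the hepatocyte enzymes of family 2, Cyp2e1 (chr7:140763739-140774987) had 7.83, 16.4 and 48.1 CPM as lowest, median and highest control values and 6.94, 33.1 and 55.6 CPM under CDA-HFD. The groups overlapped, and the log2 difference of 0.41 ± 0.26 did not pass (edgeR adjusted p 0.205). Cyp2c29, an epoxygenase of pericentral hepatocytes, had 0.104, 1.86 and 9.99 CPM in control and 0, 0.156 and 1.71 CPM under CDA-HFD. It fell by 3.77 on the log2 scale with an SE of 0.66 (adjusted p 5.93e-05). The size moved more than the call, to -2.68 without control ZT6 replicate 2, -3.13 without control ZT12 replicate 1 and -9.24 with a hepatocyte score as covariate. Of the Cyp2c genes tested it was the 1 that passed: Cyp2c70 gave 0.08 ± 0.46 and Cyp2c50 gave 0.06 ± 0.45. Cyp2d10 rose by 1.42 ± 0.47 (adjusted p 0.0162) and Cyp2a12, a steroid hydroxylase, by 1.32 ± 0.53 (0.0422), both from means near 1 CPM. Counts of both are uncertain, since 40.5% of the exon windows of Cyp2d10 recur elsewhere, most of them in Cyp2d9, and 20.4% of those of Cyp2a12, most in Cyp2a22. Cyp2d10 lost its call without control ZT6 replicate 1 (adjusted p 0.0555), and Cyp2a12 lost its call in 11 of 22 fits without 1 library: control ZT0 replicates 1 and 2, ZT6 replicate 2 and ZT12 replicate 2, and CDA-HFD ZT0 replicates 2 and 3, ZT6 replicate 2, all 3 replicates at ZT12 and ZT18 replicate 3 (adjusted p 0.00700 to 0.114 over the 22). Without control ZT12 replicate 1 the differences were 2.21 for Cyp2d10 and 2.03 for Cyp2a12.

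The remaining enzymes of families 2 and 3 at 1 CPM or more did not pass. Cyp2f2, the naphthalene-oxidising enzyme of lung and periportal hepatocytes, gave -0.61 ± 0.26 (edgeR adjusted p 0.0591). The vitamin D hydroxylase Cyp2r1 gave -0.54 ± 0.23 (0.0532). Cyp2d26 was as near the threshold in the other direction, with 0.67 ± 0.29 (0.0574), and DESeq2 called it. Cyp3a11, a main steroid and drug hydroxylase of mouse liver and a target of Nr1i2, had 2.03, 4.21 and 15.7 CPM in control and 2.93, 6.54 and 13.7 CPM under CDA-HFD, with 0.40 ± 0.25 (0.190). Over the 15 members at 1 CPM or more that did not pass, log2 differences ran from -0.64 to 1.00.

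These levels can be read beside the hepatocyte markers, of which 21 of 25 rose, and beside the pericentral list. The sum of that list was lower in every CDA-HFD library than in any control library. Of its 12 genes, though, 5 rose and 3 fell, with a median log2 difference of 0.25. In percent of the hepatocyte sum, a description chosen with the values in view and not tested, Cyp2e1 had a median of 2.09% in control (0.877 to 4.56%) and 1.48% under CDA-HFD (0.211 to 2.34%). Cyp3a11 had 0.463% and 0.256%, Cyp2f2 0.287% and 0.0618%, Cyp2d9 0.227% and 0.0496%, Cyp2c70 0.219% and 0.0761%, Cyp4f14 0.380% and 0.269%, Cyp1a2 0.0802% and 0.149%, and Cyp2j5 0.246% and 0.312%. For all 8 of these genes the ranges of the diets overlapped.

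Family 4 oxidises the ends of fatty acids and eicosanoids. Cyp4f18 (chr8:71988482-72009626, minus strand), the enzyme with which mouse neutrophils and other leukocytes break down leukotriene B4, rose most among members at 1 CPM or more. Its control values were 9.02, 12.0 and 11.9 CPM at ZT0, 3.28 and 9.60 at ZT6, 8.13 and 0.967 at ZT12, and 24.3, 8.12 and 3.32 at ZT18. Under CDA-HFD they were 29.2, 33.7 and 63.7 CPM at ZT0, 32.2, 43.1 and 38.7 at ZT6, 34.4, 34.7 and 31.1 at ZT12, and 34.9, 50.3 and 62.8 at ZT18. All CDA-HFD values were above all control values, the nearest control being ZT18 replicate 1. The log2 difference was 2.37 ± 0.34 (edgeR adjusted p 4.14e-06). Leukocyte markers moved with it: 12 of 12 lymphocyte, 9 of 12 macrophage and 10 of 12 neutrophil genes rose, and their part in the result was not tested. Cyp4f18 was 0.129 to 2.96% of the lymphocyte sum in control and 0.633 to 2.95% under CDA-HFD, 0.148 to 4.20% and 0.807 to 3.83% of the macrophage sum, and 1.25 to 45.6% and 16.8 to 101.8% of the neutrophil sum, all overlapping. Of its exons, 181 bases overlap Zfp961.

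Cyp4f14, the liver enzyme that hydroxylates leukotriene B4, had 1.98, 3.11 and 6.91 CPM as lowest, median and highest control values and 2.93, 6.24 and 9.41 CPM under CDA-HFD, with a log2 difference of 1.02 ± 0.24 (edgeR adjusted p 0.00115). Cyp4f17 rose by 0.60 ± 0.18 (0.00626). Cyp4f13 fell by 0.32 on the log2 scale with an SE of 0.10 (0.0127), from a median of 38.0 CPM (23.5 to 43.6) to 28.5 (21.2 to 37.9), and lost its call when libraries were scaled by size alone (-0.13, 0.285). Cyp4f16 gave -0.23 ± 0.11 (0.0864), with 26.5% of the windows of its longest transcript recurring, most often in Cyp4f37. So the Cyp4f genes, most of them clustered on chromosome 17, did not move together, and their sum went from 82.8 to 108.8 CPM with Cyp4f18 supplying the gain.

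Cyp4v3, the mouse counterpart of the fatty acid hydroxylase mutated in Bietti crystalline dystrophy of the eye, had 10.4, 16.2 and 22.6 CPM in control and 19.2, 24.2 and 28.0 CPM under CDA-HFD. It rose by 0.47 ± 0.09 on the log2 scale (edgeR adjusted p 1.63e-04), and the ranges overlapped. Of its exons, 313 bases overlap Gm45753. Cyp4a10 and Cyp4a31, fatty acid hydroxylases of the Ppara-driven Cyp4a subfamily, were called higher (adjusted p 0.00693 and 0.00531) on few reads. Cyp4a10 had 30 counts in 10 control libraries and 210 in 12 CDA-HFD libraries, and Cyp4a31 had 18 and 133. Of the windows of the longest transcript of Cyp4a10, 30.5% recur elsewhere, most often in Cyp4a31. For Cyp4a32 this share was 46.8%, most often in Cyp4a10, so reads of these genes are not fully told apart. No fold is given, because 5 and 3 of the control libraries held no count.

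Diet differences at single times were smaller in number. Of the 49 members, 9 were called at ZT0 (30% of all genes), 8 at ZT6 (30.1%), 9 at ZT12 (29.6%) and 9 at ZT18 (30.9%). Cyp4b1, Cyp2d22, Cyp2j6, Cyp2j9 and Cyp4f18 were called at all 4 times in the same direction. Those of Cyp4f18 rested on single libraries: at ZT0 without control replicate 1 (1.82, adjusted p 0.0680) or CDA-HFD replicate 3 (1.52, 0.0891), at ZT6 without control replicate 1 (1.97, 0.149), at ZT12 without control replicate 2 (2.03, 0.0713), and at ZT18 without control replicate 2 (1.84, 0.0548) or 3 (1.61, 0.0514) they were lost. Cyp2j6 at ZT12 was lost without control replicate 1 of that time (-1.08, 0.0506), and Cyp2j5 was called at 3 times, with 1.21 ± 0.46 (0.0526) at ZT0, and at ZT6 lost its call without control replicate 2 (1.82, 0.0873).

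Over the day in control, 0 of 49 members were called by edgeR's F test, against 5.74% of all genes. Its unadjusted p was under 0.05 for 4 members and for 20.6% of all genes. DESeq2's likelihood ratio test called 2 of the 40 members to which it gave an adjusted p, Cyp4v3 and Cyp2c70. The member nearest the threshold was Cyp4v3 (edgeR adjusted p 0.0527): it was 12.3, 10.4 and 15.1 CPM at ZT0, 19.2 and 17.3 at ZT6, 22.6 and 21.8 at ZT12, and 20.1, 14.9 and 15.2 at ZT18. Both ZT12 libraries were the highest and 2 of the 3 ZT0 libraries the lowest. It was called without control ZT0 replicate 3 (0.0257), control ZT18 replicate 1 (0.0374) or CDA-HFD ZT0 replicate 1 (0.0486). The clock-driven regulators Dbp (adjusted p 3.02e-09) and Tef (2.34e-05), which feed time of day into P450 transcription in liver, did vary in the same control libraries. The adrenal genes were high in all 3 control ZT18 libraries, and their part in tests over the day was not tested.

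Under CDA-HFD, 1 member, Cyp2d22, was called over the 4 times (edgeR adjusted p 0.0437), against 1.08% of all genes. Its values were 13.1, 10.7 and 12.1 CPM at ZT0, 39.0, 25.4 and 18.8 at ZT6, 22.4, 17.7 and 20.0 at ZT12, and 19.7, 14.7 and 24.9 at ZT18. All 3 ZT0 libraries were below the other 9. The endothelial sum was 1178 to 1440 CPM at ZT0 and 1296 to 2696 in the other 9 CDA-HFD libraries, and its part in the result was not tested. In 15 of 22 fits without 1 library the call was lost, and it was kept without control ZT0 replicate 1 or 2 or CDA-HFD ZT6 replicate 3, ZT12 replicate 1 or 2, or ZT18 replicate 2 or 3 (adjusted p 0.0167 to 0.169 over the 22). In control the same gene had 197, 132 and 155 CPM at ZT0, 178 and 150 at ZT6, 186 and 155 at ZT12, and 140, 141 and 116 at ZT18. The control times overlapped, and edgeR's adjusted p was 0.669. Cyp2j6 under CDA-HFD was likewise lowest at ZT0, with 14.1, 11.9 and 5.88 CPM against 16.3 to 33.7 in the other 9 libraries, and did not pass (adjusted p 0.0772). It passed without control ZT0 replicate 2 (0.0477) or CDA-HFD ZT12 replicate 1 (0.0447), and Cyp4b1 (adjusted p 0.214) passed without CDA-HFD ZT6 replicate 1 (0.0202).

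**Figure D4:**
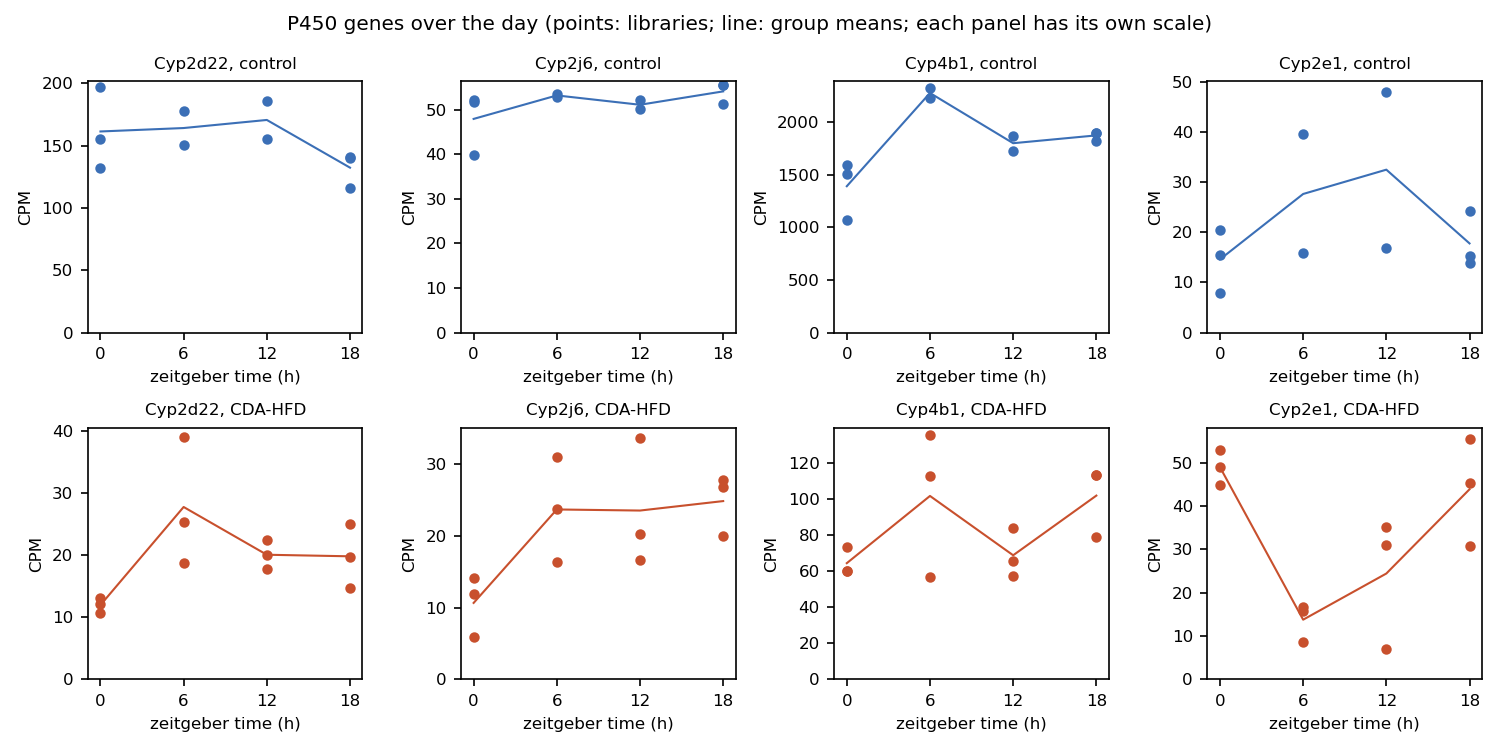
CPM (y axes, linear, from 0, each panel with its own scale) against zeitgeber time in hours (x axes) for Cyp2d22, Cyp2j6, Cyp4b1 and Cyp2e1, control in the top row and CDA-HFD in the bottom row, with points for libraries and lines through group means. Cyp2d22 and Cyp2j6 are lowest at ZT0 under CDA-HFD, and the group mean of Cyp2e1 there is highest at ZT0, though its highest library is at ZT18.

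Whether the diet difference varied over the day was tested by the diet by time interaction. No member was called by edgeR (0 of 49, against 0.959% of all genes). Its unadjusted p was under 0.05 for 7 of the 49 members and for 14.5% of all genes, a like share. DESeq2 called 2 of the 40 members to which it gave an adjusted p, Cyp2e1 and Cyp2c67. Cyp2e1 came nearest in edgeR (adjusted p 0.110). Under CDA-HFD it was 44.8, 53.0 and 49.1 CPM at ZT0, 8.65, 16.7 and 15.8 at ZT6, 6.94, 35.2 and 31.1 at ZT12, and 45.3, 55.6 and 30.7 at ZT18. In control it was 7.83, 15.5 and 20.5 CPM at ZT0, 15.8 and 39.5 at ZT6, 48.1 and 16.9 at ZT12, and 24.3, 15.2 and 13.8 at ZT18. The CDA-HFD libraries were all above the controls at ZT0 and at ZT18, while at ZT6 and ZT12 the groups overlapped. The difference was 1.75 ± 0.50 on the log2 scale at ZT0 (edgeR adjusted p 0.0111, or 1.44 and 0.0657 without control ZT0 replicate 1), -1.01 ± 0.55 at ZT6 (0.186), -0.41 ± 0.54 at ZT12 (0.633) and 1.30 ± 0.50 at ZT18 (0.0517). At ZT18 it passed in 15 of 31 alternatives, among them RLE scaling (adjusted p 0.0488), library size alone (0.0323), a mean of 5 CPM (0.0312) and 9 fits that left out 1 library: control ZT0 replicate 1, either ZT6 or ZT12 control, control ZT18 replicate 1, CDA-HFD ZT12 replicate 1 or 2, or CDA-HFD ZT18 replicate 3 (lowest adjusted p over the 22 fits 0.0177).

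The genes that serve P450 enzymes were taken from a list of electron transfer and haem supply. Of 19 genes, all tested, 14 fell, 1 rose (Uros) and 4 did not pass, with a median log2 difference of -0.54 against 0.08 over all genes, of which 24.9% fell and 27.5% rose. Por, the reductase on which all these P450 enzymes depend, fell by 0.51 on the log2 scale with an SE of 0.09 (edgeR adjusted p 4.85e-05), from 110.8 ± 18.7 CPM (SD, n = 10) to 79.0 ± 10.2 (n = 12). The smallest p-values belonged to Cyb5r3 (-1.54 ± 0.07), Cyb5a (-1.35 ± 0.08), Cyb5r1 (-1.56 ± 0.11) and Cyb5b (-0.74 ± 0.06), which make up the cytochrome b5 branch.

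Of 28 regulators of P450 transcription, all tested, 10 rose, 8 fell and 10 did not pass, with a median of 0.16. Against 27.5% of all genes higher and 24.9% lower, these counts are near the background. Ahr fell from 92.8 ± 21.3 to 43.5 ± 7.57 CPM, a log2 difference of -1.13 ± 0.09 (edgeR adjusted p 1.75e-09). The pregnane X receptor Nr1i2 rose by 1.35 ± 0.42 (0.0111) from a mean of 0.759 CPM, and Hnf4a, which sustains hepatocyte genes, rose by 1.08 ± 0.36 (0.0149). Nr1i3, the constitutive androstane receptor, gave 0.43 ± 0.59 (0.576) and Ppara gave -0.36 ± 0.46 (0.550), both under 2 CPM on average. The smallest p-values belonged to Nfil3, the repressor that competes with Dbp (3.22 ± 0.17), Rxra, the shared partner of these receptors (-1.53 ± 0.10), Dbp (-1.78 ± 0.12) and Nfe2l2 (-1.17 ± 0.08).

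Of 21 genes that share substrates with P450 enzymes in arachidonic acid and xenobiotic metabolism, 8 rose, 9 fell and 4 did not pass, with a median of 0.14, beside the same 27.5% and 24.9% of all genes. The smallest p-values belonged to the flavin monooxygenase Fmo1 (-3.31 ± 0.10), the sulphotransferase Sult1a1 (-2.47 ± 0.11), the cyclooxygenase Ptgs1 (-3.19 ± 0.15) and the lipoxygenase Alox12 (-3.05 ± 0.15). Named after their values were seen, Alox5ap, which hands arachidonic acid to the enzyme that starts leukotriene synthesis, rose by 3.04 ± 0.19 (edgeR adjusted p 1.76e-11), while Ltc4s, which makes leukotriene C4, had -3.79 ± 0.28 (2.58e-10). Cyp4f18 and Alox5ap were both higher under CDA-HFD in every library than in any control library.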

How the data were processed

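The data are RNA-seq of 22 libraries; RNA came from a Promega extraction and was read on an Illumina HiSeq, per the labels' protocols. The submitters' processing notes name STAR 2.7.9a, HTSeq, DESeq2 and the build GRCm38 (mm10). No annotation, strand setting or batch was given in the sources used here. How reads shared by a gene and an overlapping or antisense partner were counted, or whether they were dropped, is therefore not known. The authors' deposited counts are whole reads per gene symbol. The deposited normalised table was not used, since it equals those counts divided by 1 factor per library.

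The P450 members and gene lists were chosen with earlier results of these data known. Tests used edgeR 4.0.16 with limma 3.58.1 in R 4.3.3: filterByExpr, TMM scaling, a quasi-likelihood fit of all 22 libraries with 1 mean for each of 8 diet and time groups, and adjustment over 22409 genes. Tested were the diet difference averaged over times and at single times, variation over the day within each diet, and the interaction. Named members were the 10 highest per exon length, the 6 higher and 6 lower with the largest called change at 1 CPM or more, and up to 4 per F test. In each gene list, the 4 smallest p-values and fixed receptors and Por were named. Coordinates come from GENCODE M21 (GRCm38) and promoters from RefSeq (GRCm38.p6). Alternatives were RLE scaling, library size, no filter, a mean of 5 CPM, DESeq2 1.42.0, the replicate block, a hepatocyte score, fits on the groups compared and each library left out. Replicate pairs of a group differed by more than sampling noise (lowest chi-square per degree of freedom 16).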

Additional observations from a re-analysis of the deposited data

How the results depend on the processing

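For diet over all times, Cyp4b1, Cyp2d22, Cyp2j6, Cyp2j9 and Cyp2c29 kept their direction and call under every alternative in which they were tested. These were 29 for Cyp2j9 and Cyp2c29 and 30 for each of the others. Cyp4f18, Cyp2j5, Cyp4v3, Cyp4f14, Cyp1a1 and Cyp4a31 lost theirs under 1 alternative, the hepatocyte score, the mean log2 CPM of the hepatocyte list, which does not overlap between the diets. With it the estimate of Cyp2j5 was 2.02 ± 0.89, of Cyp4v3 0.44 ± 0.30 and of Cyp1a1 -2.68 ± 2.37, close to those without it but with larger standard errors, while Cyp4f14 (0.30 ± 0.82), Cyp4f18 and Cyp4a31 (1.56 ± 2.95) were smaller. With the score, 6 members were called over all times, 4 at ZT0, 5 at ZT6, 5 at ZT12, 2 at ZT18 and 0 over the times under CDA-HFD. Of the members called at all 4 times in the main fit, Cyp4f18 lost its call at each. Cyp2j9 lost its call at ZT0 (-3.55, edgeR adjusted p 0.1185), ZT12 (-3.11, 0.0915) and ZT18 (-2.17, 0.534). Cyp2j6 lost its call at ZT18 (-1.78, 0.129). Among members called in the main fit, estimates turned sign for Cyp1a2 (-0.33 ± 1.82), Cyp2d10 (-1.28 ± 1.51), Cyp4a10 and Cyp4f18 (-0.021 ± 0.831). That of Cyp4a10 was -1.08 ± 12.6, on too few reads to be read as a fold. All lay within 1 SE of 0. At single times where these genes were called, signs turned at ZT0 for Cyp4f18 (-0.81) and at ZT18 for Cyp4f18 (-1.08) and Cyp2d10 (-1.36). None of these was called with the score. Cyp2d11, not called in the main fit (-0.31 ± 0.98), was called with the score (14.2 ± 4.66, edgeR adjusted p 0.0481). Its 90 counts in all libraries together are too few to be read as a fold. Other uncalled members also turned sign, among them Cyp2e1 (-0.78 ± 0.79) and Cyp3a11 (-1.15 ± 0.73). Without both control libraries that stand apart, an alternative added after seeing the data, 18 members were called over all times. Cyp4f17 lost its call with no filter (adjusted p 0.0746), which called Cyp2e1 (3.78e-04), and Cyp4f16 was called without CDA-HFD ZT0 replicate 1 (0.0306) or ZT18 replicate 3 (0.0198). With a mean of at least 5 CPM, 8 members of 12 tested were called over all times. This filter keeps only the more abundant genes, so that share was not compared with the 34.7% of the main fit.

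Calls over the day were few and moved with the settings. In control, 1 member was called with RLE scaling, 1 with library size alone, 1 at a mean of 5 CPM, 1 without both control libraries that stand apart, 2 with DESeq2 and 5 with no filter. Under CDA-HFD, 0 were called with RLE scaling and 0 in a fit of the CDA-HFD groups alone, 2 with library size alone, 2 with DESeq2 and 5 with no filter. The interaction gave 2 with DESeq2 and 6 with no filter. DESeq2 gave an adjusted p to 40 members in control, 30 under CDA-HFD and 40 for the interaction, not to all 49. Calls over all genes also moved under several of these settings, with counts in the next paragraph. Shares of members and of all genes were not compared there. The causes were not tested. With each library left out, members called ranged from 15 to 21 over all times, 6 to 11 at ZT0, 6 to 9 at ZT6, 6 to 10 at ZT12, 6 to 11 at ZT18, 0 to 2 over the times in control, 0 to 2 under CDA-HFD and 0 to 1 for the interaction. Where this leaves 1 library in a group, it is assumed to vary like the other groups.

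Replicate numbers do not pair the samples: 2 of 71 same-numbered pairs had a correlation of their deviations above 0.1 (median -0.005, other pairs 0). With the replicate block 16 members were called over all times, then 9, 9, 8 and 9 at ZT0, ZT6, ZT12 and ZT18, and 0, 1 and 0 in the F tests. Cyp1a2 was not called with it (adjusted p 0.0690). Over all genes, the F tests moved by more than 1.5 times: in control from 1287 to 2866 with no filter, 3078 with DESeq2 and 241 in the groups alone, under CDA-HFD from 241 to 121 with the hepatocyte score and 1500 with no filter, and the interaction from 215 to 123 with the replicate block and 2085 with no filter. With each library left out these gave 790 to 1957, 96 to 663 and 76 to 1086 genes. The hepatocyte score brought diet over all times from 11748 to 3129 genes. Library size alone shifted the median log2 difference of all genes from 0.08 to 0.25 and the split to 7635 higher and 4557 lower.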
